A study of Mus musculus with 6 samples.

Results

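The genes of TGF-β and BMP signalling were examined in RNA sequencing of NOR-10, a fibroblast line of mouse skeletal muscle, treated or not with D-galactose (D-gal), a sugar widely used to induce cellular senescence. The set held 51 gene symbols chosen by their role in the pathway: ligands, latent TGF-β binding proteins, receptors, secreted antagonists, Smads, nuclear repressors, ubiquitin ligases and Id targets. They took up 52 of the 34745 rows of the gene table, because Ltbp4 has 2 identifiers. The control group (Con, 3 libraries) received PBS and the D-gal group (Dgal, 3 libraries) received 20 mg/mL D-gal over 3 days. Both groups came from the same purchased cell line, grown in medium with 10% serum, so they stand for a single line and not for separate animals. The comparison asked how the D-gal treatment moved transcript levels in these fibroblasts.

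TGF-β ligands are secreted as latent complexes held in the matrix and, once released, bring together a type II and a type I receptor kinase. The TGF-β and activin receptors pass the signal to Smad2 and Smad3, the BMP receptors to Smad1, Smad5 and Smad9, and both classes enter the nucleus with Smad4. In muscle fibroblasts the TGF-β branch is best known for driving collagen deposition and the contractile myofibroblast state, and the BMP branch for inducing the Id genes. Secreted antagonists, inhibitory Smads and ubiquitin ligases limit the signal at successive steps.

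The libraries held between 13759108 and 20830349 counts, and every D-gal library was shallower than every control library. Normalized counts (counts scaled by the TMM library size to a common depth) correlated across genes between 0.9876 and 0.9897 within groups and between 0.9694 and 0.9763 across groups. The labels do not say whether the 3 libraries of a group came from separate cultures, so p-values measure the spread between these samples, which may be technical. The fibroblast label was checked against 12 markers. Lum and Fap were at or near 0 throughout, whereas the list summed to between 129600 and 132900 normalized counts under PBS and between 85540 and 90980 under D-gal. Within this sum, the collagen genes Col1a1 and Col1a2 fell from means of 39310 and 35910 to 24060 and 18330. At the threshold given below, 1 of the 10 markers tested was higher (10%, beside 16.9% of all genes) and 6 were lower (60%, beside 17.8%). The share of fibroblasts and the RNA per fibroblast cannot be told apart in such bulk samples. Of the 10 myogenic markers, Pax7, Myf5 and Myod1 were at 0 throughout, and the sum was between 129 and 133.3 under PBS and between 102.1 and 105.9 under D-gal. The macrophage markers summed to between 165.6 and 848.7 under PBS and between 147.4 and 156 under D-gal, the highest value being control library 1. With that library left out, 22 members still changed, Skil taking the place of Eng. The epithelial markers summed to between 117.5 and 142.4 under PBS and between 29.48 and 43.77 under D-gal, nearly all of it Cdh1, with Epcam and Cldn4 at 0, and the adipocyte markers to between 284 and 300 and between 239 and 330.1. The part of these in the members' values was not tested.

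Of the 51 genes, 48 had enough counts to be tested, and Bmp2, Bmp6 and Bmp7 did not, having at most 6 counts in any library. A gene was called changed at an adjusted p under 0.05 in the quasi-likelihood test of edgeR, adjusted by the Benjamini-Hochberg method over all 13407 genes tested. By this rule 22 of the 48 (45.8%) changed, beside 34.8% of all genes tested. Higher in D-gal were 7 (14.6%, beside 16.9% of all genes): Tgfb2, Ltbp2, Bmpr2, Eng, Nog, Smad9 and Smurf2. Lower were 15 (31.2%, beside 17.8%): Tgfb1, Tgfb3, Inhbb, Gdf10, Ltbp1, Ltbp3, Tgfbr1, Tgfbr2, Acvr1b, Grem1, Fst, Fstl1, Smurf1, Id1 and Id3. The genes that moved apart included close relatives, with Tgfb2 against Tgfb1 and Tgfb3, Ltbp2 against Ltbp1 and Ltbp3, and Smurf2 against Smurf1. The type II receptors Bmpr2 and Tgfbr2 also moved apart. Other relatives moved together, with Tgfb1 and Tgfb3, Ltbp1 and Ltbp3, and Id1 and Id3 all lower.

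Most of the changes were small. The median log2 fold change of the 48 was -0.11, beside 0.0036 over all genes tested, and the median size was 0.22 beside 0.19. Only Nog and Inhbb also passed a log2 fold change of 1 in size, the study's criterion for differential expression, which 4.21% of all genes passed. For 31 of the 48 genes (64.6%) the 3 D-gal values lay entirely to one side of the 3 control values, beside 49.1% of all genes tested. The members also had more counts, with a median of 906.4 normalized counts against 467.8 over all genes tested, and more counts give a smaller error. The part of this in the shares above was not tested.

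**Figure D1:**
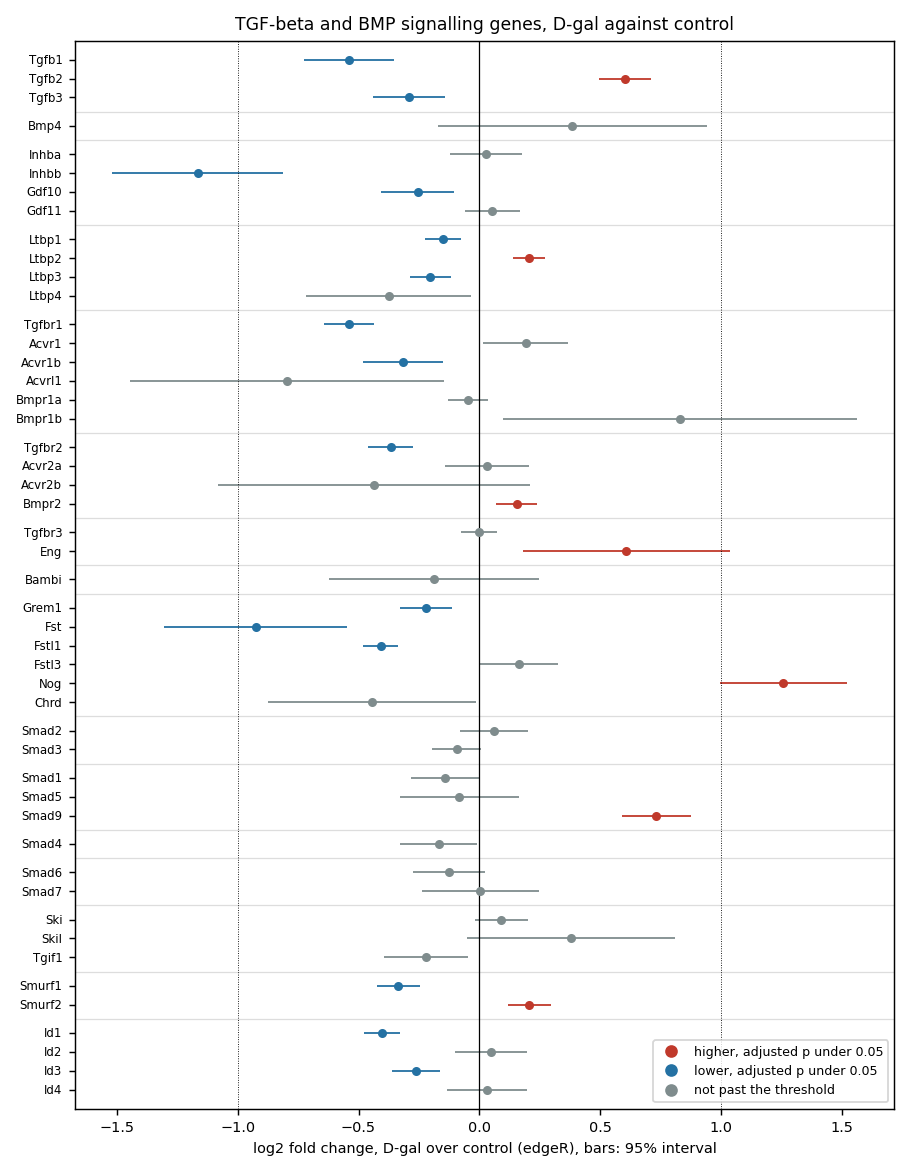
Log2 fold change (D-gal over control, x axis) of the 48 genes tested, grouped by role from ligands at the top to Id genes at the bottom. Points are edgeR estimates and bars 95% intervals from 3 against 3 libraries, red for the 7 higher genes, blue for the 15 lower and grey for the 26 not past the threshold, and only Nog and Inhbb lie beyond the dotted lines at a log2 fold change of 1 in size.

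The sequences around the transcription start of the changed genes with the largest fold changes are shown, since such regions can hold sites for Smads and other factors. Sites outside these windows were not searched. They are 300 bases long, from 250 before to 50 after the start, and were taken from RefSeq (GRCm38.p6), which gave a promoter for 38 of the 51 genes. Nog and Fst have none there. Each reads 5′ to 3′ on the strand of its gene, with capitals marking the motifs CAGAC (the core of the Smad-binding element), GTCTAGAC (its palindromic form), GGCGCC (a GC-rich element bound by BMP Smads) and TATAAA (the TATA box), searched on both strands. The Tgfb2 window is chr1:186705940-186706239 (minus strand), that of Tgfb1 is chr7:25686752-25687051 (plus), that of Inhbb is chr1:119422199-119422498 (minus) and that of Smad9 is chr3:54755332-54755631 (plus).
Tgfb2: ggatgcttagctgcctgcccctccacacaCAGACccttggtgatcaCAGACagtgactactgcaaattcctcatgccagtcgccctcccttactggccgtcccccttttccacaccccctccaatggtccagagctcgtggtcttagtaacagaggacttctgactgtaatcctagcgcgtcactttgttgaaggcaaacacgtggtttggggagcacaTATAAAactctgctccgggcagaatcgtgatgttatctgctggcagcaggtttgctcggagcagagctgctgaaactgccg
Tgfb1: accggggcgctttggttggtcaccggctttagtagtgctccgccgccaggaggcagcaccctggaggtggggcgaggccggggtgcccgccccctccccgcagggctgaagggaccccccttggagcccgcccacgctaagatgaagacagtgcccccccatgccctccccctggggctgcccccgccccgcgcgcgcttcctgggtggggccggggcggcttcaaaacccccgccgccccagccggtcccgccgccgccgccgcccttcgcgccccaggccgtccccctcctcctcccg
Inhbb: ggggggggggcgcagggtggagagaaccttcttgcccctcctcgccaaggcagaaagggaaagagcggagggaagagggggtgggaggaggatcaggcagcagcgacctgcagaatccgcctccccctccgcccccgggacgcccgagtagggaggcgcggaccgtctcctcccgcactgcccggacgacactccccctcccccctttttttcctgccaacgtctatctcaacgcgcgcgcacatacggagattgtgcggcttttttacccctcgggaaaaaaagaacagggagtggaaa
Smad9: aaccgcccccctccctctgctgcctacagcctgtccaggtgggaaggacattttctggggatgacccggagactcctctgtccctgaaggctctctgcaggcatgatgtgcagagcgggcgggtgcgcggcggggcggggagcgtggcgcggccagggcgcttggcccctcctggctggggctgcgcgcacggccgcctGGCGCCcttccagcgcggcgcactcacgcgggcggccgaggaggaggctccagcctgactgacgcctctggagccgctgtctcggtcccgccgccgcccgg

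The Tgfb2 window held CAGAC beginning at -221 and at -204 from the start and a TATA box at -31, and 54.3% of its bases were G or C. The Tgfb1 window held none of the motifs and was 77.0% G or C, and that of Inhbb held none at 64.3%. The Smad9 window held GGCGCC at -51 and was 73.7% G or C. The median over all 32851 promoters was 52.7%. CAGAC occurs in 49.6% of all promoters, GGCGCC in 11.9%, TATAAA in 13.6% and GTCTAGAC in 0.213%. By gene, CAGAC was found in 4 of the 6 higher members with a promoter, 8 of the 12 lower and 7 of the 19 not past the threshold, beside 53.2% of all 27025 genes. GGCGCC was found in 3, 4 and 7 of them, beside 13.4% of genes. Of the changed members only Tgfb2 held TATAAA, and GTCTAGAC was found only in Smad6, which did not pass the threshold. The motifs were chosen after expression values had been seen, and a match is a description of the letters.

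The TGF-β ligands moved in opposite directions, with Tgfb2 higher and Tgfb1 and Tgfb3 lower in D-gal. Tgfb2 (ENSMUSG00000039239, GRCm38 chromosome 1, 186622792 to 186705989) had 921.9, 884.6 and 866.6 normalized counts in control libraries 1, 2 and 3 and 1313, 1366 and 1382 in D-gal libraries 1, 2 and 3, the order kept for all genes here. Every D-gal library was above every control library, and the log2 fold change was 0.60 (standard error, SE, 0.047, adjusted p = 6.3e-05). An exon of Tgfb2 overlaps Gm29491 on the other strand, and the strand setting of the counting is not given in the sources used here. Tgfb1 (ENSMUSG00000002603, chromosome 7, 25687002 to 25705077), the classical profibrotic ligand, had 556.8, 514.9 and 495.9 under PBS and 374.8, 329.8 and 374.7 under D-gal. The groups did not overlap, and the log2 fold change was -0.54 (SE 0.080, adjusted p = 0.00149). Without control library 1, the one high in macrophage markers, it was -0.49 (adjusted p = 0.00728).

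Tgfb3, the ligand with the highest level per length of the 3, had 1143, 1049 and 1162 normalized counts under PBS and 967.4, 852.8 and 920.6 under D-gal. The highest D-gal library was below the lowest control library, with a log2 fold change of -0.29 (SE 0.065, adjusted p = 0.00984). Genes on the other strand overlap Tgfb3, and 9.96% of its words of 31 bases occur in other genes, so its counts are uncertain. Per kilobase of exon, the 3 ligands together gave 607, 565 and 591 normalized counts under PBS and 587, 553 and 585 under D-gal, ranges that overlap. The makeup of that sum differed, with Tgfb2 at 26.2%, 27.0% and 25.3% under PBS and 38.6%, 42.6% and 40.8% under D-gal. Tgfb3 took between 54.9% and 58.1% under PBS and between 45.6% and 48.7% under D-gal, and Tgfb1 between 16.6% and 18.2% and between 11.8% and 12.7%. Tgfb3 remained the most abundant of the 3 in every library. The shares depend on the exon lengths used. The authors' FPKM values, another measure scaled to gene length, put Tgfb2 further below Tgfb3. Under PBS they were 5.982, 5.727 and 5.595 for Tgfb2 and 19.92, 18.24 and 20.15 for Tgfb3. Under D-gal they were 8.671, 9.083 and 9.174 for Tgfb2 and 17.15, 15.23 and 16.41 for Tgfb3.

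**Figure D2:**
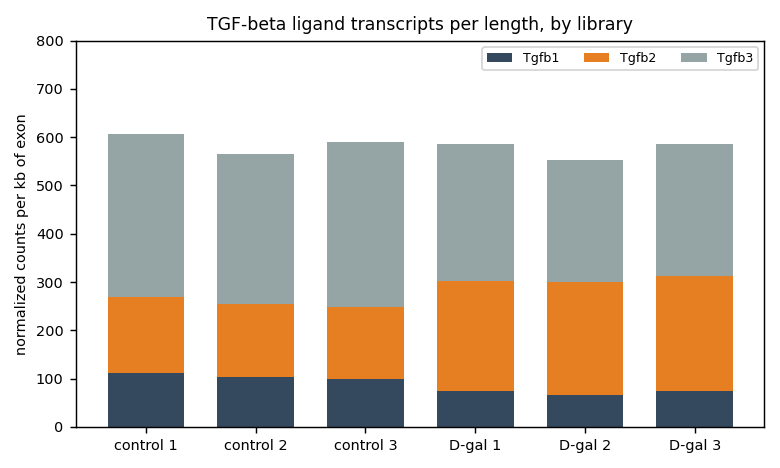
Normalized counts per kilobase of exon of Tgfb1, Tgfb2 and Tgfb3 (y axis, stacked) in each of the 6 libraries (x axis). The total lies between 553 and 607 in all libraries, and the orange Tgfb2 segment is larger in each D-gal library than in any control library.

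Among the activin and GDF ligands, Inhbb, the βB subunit of activin and inhibin, showed the largest fall of the 48 genes tested. Inhbb (ENSMUSG00000037035, chromosome 1, 119415465 to 119422248, 1 annotated transcript) had 199.5, 160.8 and 169.7 normalized counts under PBS and 85.29, 64.42 and 86.75 under D-gal. Every D-gal library was below every control library, a 2.24-fold lower level with a log2 fold change of -1.17 (SE 0.15, adjusted p = 8.14e-04). Inhba, which encodes the βA subunit, had 503.3 ± 10.9 under PBS and 513.1 ± 28.5 under D-gal (SD, n = 3), with a log2 fold change of 0.03 (95% interval -0.12 to 0.18, adjusted p = 0.775). The ratio of Inhbb to Inhba counts within a library was between 0.326 and 0.398 under PBS and between 0.134 and 0.163 under D-gal. Gdf10, a BMP3-related ligand, had 1075, 1064 and 1111 under PBS and 824.8, 927 and 970 under D-gal. These did not overlap, and the log2 fold change was -0.26 (SE 0.065, adjusted p = 0.0182), although without control library 3 the adjusted p was 0.0565. Gdf11, a close relative of myostatin, had a log2 fold change of 0.05 (95% interval -0.06 to 0.17, adjusted p = 0.449).

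BMP ligands were scarce in these cells. Bmp4 had between 33.3 and 41.0 normalized counts under PBS and between 37.4 and 66.2 under D-gal, overlapping ranges with an adjusted p of 0.26. Bmp2 had 2, 0 and 2 counts under PBS and 2, 0 and 0 under D-gal, Bmp6 had 3, 0 and 6 and then 2, 2 and 0, and Bmp7 had 0, 1 and 2 and then 0 in all 3. At this depth no difference in these 3 ligands was detectable.

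The latent TGF-β binding proteins split in the same manner as the ligands, with Ltbp2 higher and Ltbp1 and Ltbp3 lower. LTBP1, LTBP3 and LTBP4 tether the latent cytokine to the matrix, whereas LTBP2 shares their structure but is not known to bind it covalently. Ltbp2 had 7265, 7267 and 7270 normalized counts under PBS and 8573, 8190 and 8361 under D-gal. The control libraries lay within 5 counts of each other and all D-gal libraries were above them, with a log2 fold change of 0.20 (SE 0.029, adjusted p = 0.0011). Ltbp1 had 7005, 7047 and 6981 under PBS and 6515, 6114 and 6337 under D-gal, a log2 fold change of -0.15 (SE 0.032, adjusted p = 0.00859). Ltbp3 had 6647, 6701 and 6290 against 5670, 5841 and 5547, a log2 fold change of -0.20 (SE 0.037, adjusted p = 0.00378). Neither gene had overlapping groups. Ltbp2 and Ltbp3 overlap genes on the other strand, and Ltbp2 shares 9.25% of its words with other genes.

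Ltbp4 did not pass the threshold as listed, and its call turned on the second identifier. The main row had 290.2, 209.7 and 273.7 normalized counts under PBS and 176.2, 194.4 and 225.3 under D-gal. Control library 2 fell among the D-gal libraries, and the log2 fold change was -0.38 (SE 0.15, adjusted p = 0.0853). The other row (ENSMUSG00000108715), which lies inside the Ltbp4 locus and is not in GENCODE M21, held 99 counts in control library 2 and 0 in each of the other 5. With both rows summed, an alternative chosen after seeing the data, the control libraries had 290.2, 290.5 and 273.7 and the groups no longer overlapped, with a log2 fold change of -0.52 (adjusted p = 0.00646). Without control library 2 the main row alone gave -0.51 (adjusted p = 0.0249).

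Of the receptors, Tgfbr1, Tgfbr2 and Acvr1b were lower and Bmpr2 and Eng were higher. Tgfbr1 (ENSMUSG00000007613, chromosome 4, 47353222 to 47414931), the type I receptor for TGF-β, had 1266, 1250 and 1277 normalized counts under PBS and 895.6, 864.8 and 849.5 under D-gal. The gap between the groups was far wider than the spread within either, with a log2 fold change of -0.54 (SE 0.044, adjusted p = 8.3e-05). Tgfbr2, its type II partner, had 2381, 2360 and 2402 under PBS and 1879, 1759 and 1903 under D-gal. It too did not overlap, with a log2 fold change of -0.37 (SE 0.040, adjusted p = 3.34e-04). Acvr1b, the activin type I receptor, had 1002, 906.6 and 1008 against 849.5, 741.4 and 750.7, a log2 fold change of -0.32 (SE 0.072, adjusted p = 0.0109) with no overlap.

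Bmpr2, the type II receptor for BMPs, had 2465, 2488 and 2500 normalized counts under PBS and 2700, 2722 and 2870 under D-gal. All D-gal libraries were higher, although the change was only 1.11-fold (log2 fold change 0.15, standard error 0.036, adjusted p = 0.013). The ratio of Bmpr2 to Tgfbr2 counts was 1.04, 1.05 and 1.04 under PBS and 1.44, 1.55 and 1.51 under D-gal. Eng (endoglin), a co-receptor best known in endothelial cells, had 38.34, 31.83 and 38.38 under PBS and 60.6, 46.95 and 57.84 under D-gal. The groups did not overlap and the log2 fold change was 0.61 (SE 0.19, adjusted p = 0.0366), but it overlaps Fpgs on the other strand and it lost its call in 8 of the 14 alternative fits, in 5 of them when 1 library was left out (each of the 3 control libraries, D-gal library 1 or D-gal library 3). Beside it, the 6 endothelial markers summed to between 88.13 and 97.6 under PBS and between 74.07 and 105.9 under D-gal. These overlapping sums hide opposite moves. Of the 4 markers tested, Vwf was higher (log2 fold change 1.66, adjusted p = 0.0161) and Tek lower (-1.02, adjusted p = 0.0342). The other 2 did not pass the threshold.

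The other receptors did not pass the threshold. Tgfbr3 (betaglycan), which presents TGF-β2 to its receptors, was the most abundant receptor per length and differed least, with 5973 ± 32.8 normalized counts under PBS and 5960 ± 182 under D-gal (SD, n = 3) and a 95% interval of the log2 fold change from -0.08 to 0.07. Bmpr1a, the BMP type I receptor with the highest level per length, had 3410 ± 86.2 and 3301 ± 85.2, with an interval from -0.13 to 0.04. Acvr1 had a log2 fold change of 0.19 (adjusted p = 0.0893), and D-gal library 1, at 1004, fell among control values of 984.1 to 1009. Without that library the log2 fold change was 0.27 (adjusted p = 0.00967). Acvrl1, a type I receptor used chiefly by endothelial cells, had 204.8, 188.5 and 124.2 under PBS and 144.8, 76.43 and 77.11 under D-gal, a log2 fold change of -0.80 (adjusted p = 0.0602). Its groups overlapped only through control library 3 and D-gal library 1, and leaving out either gave an adjusted p of 0.0333 or 0.0108. DESeq2 also called it (adjusted p = 0.0108), as did edgeR with no filter on low counts (0.0308). Acvr2a, which shares 7.32% of its words with other genes, had a log2 fold change of 0.03 (adjusted p = 0.776). Bmpr1b and Acvr2b were under 25 normalized counts in every library, with adjusted p of 0.0775 and 0.269. Bambi, a pseudoreceptor that lacks the kinase, had a log2 fold change of -0.19 (95% interval -0.62 to 0.25, adjusted p = 0.486).

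Among the secreted antagonists, Nog showed the largest rise of the 48 genes tested and Fst the largest fall in its class. Nog (noggin, ENSMUSG00000048616, chromosome 11, 89300638 to 89302332, 1 annotated transcript), which binds BMPs and keeps them from their receptors, had 78.43, 97.92 and 88.88 normalized counts under PBS and 214.3, 210.7 and 209.7 under D-gal. The D-gal libraries were 2.39-fold higher and lay close together, with a log2 fold change of 1.26 (SE 0.11, adjusted p = 1.33e-04). Fst (follistatin, ENSMUSG00000021765, chromosome 13), which binds activins and myostatin, had 214.4, 298.7 and 282.8 under PBS and 124.6, 128.8 and 166.3 under D-gal. The groups did not overlap, the log2 fold change was -0.92 (SE 0.16, adjusted p = 0.0035), and Gm47040 overlaps it on the other strand.

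The antagonists most abundant per length also fell. Fstl1, a secreted glycoprotein related to follistatin, had 19280, 19310 and 19220 normalized counts under PBS and 14910, 13910 and 14710 under D-gal. It had the lowest adjusted p of the whole set (5.9e-05), with a log2 fold change of -0.41 (SE 0.031), and 8.45% of its words occur in other genes. Grem1 (gremlin), another BMP antagonist, had 15160, 15230 and 15520 under PBS and 14130, 12390 and 12870 under D-gal, a log2 fold change of -0.22 (SE 0.047, adjusted p = 0.00783) with no overlap. Grem1 and Nog, both binders of BMPs, therefore moved apart, and the ratio of their counts was 193, 156 and 175 under PBS and 65.9, 58.8 and 61.4 under D-gal. Even so, Grem1 remained the more abundant per length in D-gal, at 3170 normalized counts per kilobase against 125 for Nog. Chrd (chordin) had a log2 fold change of -0.45 (adjusted p = 0.102) and Fstl3 of 0.16 (adjusted p = 0.105), with 46.67% of the words of Fstl3 shared with other genes.

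Of the Smads only Smad9 changed, a Smad of the BMP branch. Smad9 (ENSMUSG00000027796, chromosome 3, 54755582 to 54801257) had 390.4, 430.9 and 402 normalized counts under PBS and 670, 670.4 and 692.8 under D-gal. The groups were far apart relative to their spread, at 1.66-fold, with a log2 fold change of 0.73 (SE 0.062, adjusted p = 9.7e-05). For Smad1 and Smad5, which carry the same signal, the log2 fold changes were -0.14 (95% interval -0.28 to 0.0024, adjusted p = 0.117) and -0.08 (-0.33 to 0.16, adjusted p = 0.588). The ratio of Smad9 to Smad1 counts was 0.417, 0.466 and 0.469 under PBS and 0.786, 0.872 and 0.82 under D-gal. Per kilobase of exon, Smad9 went from a mean of 76.0 to 126 normalized counts, beside 145 and 131 for Smad1. Smad2 and Smad3, the TGF-β and activin Smads, had log2 fold changes of 0.06 (-0.08 to 0.20, adjusted p = 0.475) and -0.09 (-0.20 to 0.0067, adjusted p = 0.134). Smad4, the common partner, had -0.17 (-0.33 to -0.0085, adjusted p = 0.0972). The inhibitory Smads, themselves targets of the pathway, had -0.13 for Smad6 (-0.28 to 0.02, adjusted p = 0.176) and 0.0035 for Smad7 (-0.24 to 0.24, adjusted p = 0.984).

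The ubiquitin ligases Smurf1 and Smurf2, which mark Smads and receptors for degradation, went in opposite directions. Smurf1 had 2283, 2244 and 2205 normalized counts under PBS and 1835, 1785 and 1713 under D-gal, a log2 fold change of -0.34 (SE 0.039, adjusted p = 4.34e-04). Smurf2 had 2138, 2165 and 2177 under PBS and 2601, 2458 and 2415 under D-gal, a log2 fold change of 0.21 (SE 0.039, adjusted p = 0.00473). Neither pair of groups overlapped, and the ratio of Smurf2 to Smurf1 counts within a library was between 0.936 and 0.988 under PBS and between 1.38 and 1.42 under D-gal. Gm27322 overlaps Smurf2 on the same strand. Of the nuclear repressors, which bind Smads and recruit histone deacetylases, Ski had a log2 fold change of 0.09 (adjusted p = 0.174), Skil 0.38 (adjusted p = 0.156) and Tgif1 -0.22 (adjusted p = 0.0527). Skil was variable, at 518.5, 376.2 and 337.3 under PBS and 416.4, 589.6 and 598.8 under D-gal. Its groups overlapped only through control library 1 and D-gal library 1. Without control library 1 the log2 fold change of Skil was 0.59 (adjusted p = 0.0381), and without D-gal library 1 it was 0.53 (adjusted p = 0.058). Without control library 2 the log2 fold change of Tgif1 was -0.28 (adjusted p = 0.0342).

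Of the Id genes, which encode helix-loop-helix proteins without a DNA-binding region and are direct BMP targets in many cells, Id1 and Id3 fell and Id2 and Id4 did not pass the threshold. Id1 (ENSMUSG00000042745, chromosome 2, 152736251 to 152737410) had 3740, 3645 and 3655 normalized counts under PBS and 2717, 2816 and 2812 under D-gal. No library of either group came near the other, with a log2 fold change of -0.40 (SE 0.033, adjusted p = 7.8e-05). Id3 (ENSMUSG00000007872, chromosome 4, 136143497 to 136145755) had 2589, 2468 and 2610 under PBS and 2060, 2107 and 2225 under D-gal, a log2 fold change of -0.26 (SE 0.043, adjusted p = 0.00234) with no overlap. Id2 had 622.3 ± 21.8 against 642.7 ± 40.0 (SD, n = 3) and an interval of the log2 fold change from -0.10 to 0.20. Id4 had 576.5 ± 23.2 against 588.8 ± 45.5 and an interval from -0.14 to 0.20. The 2 Id genes that fell were the 2 most abundant of the 4 per length.

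**Figure D3:**
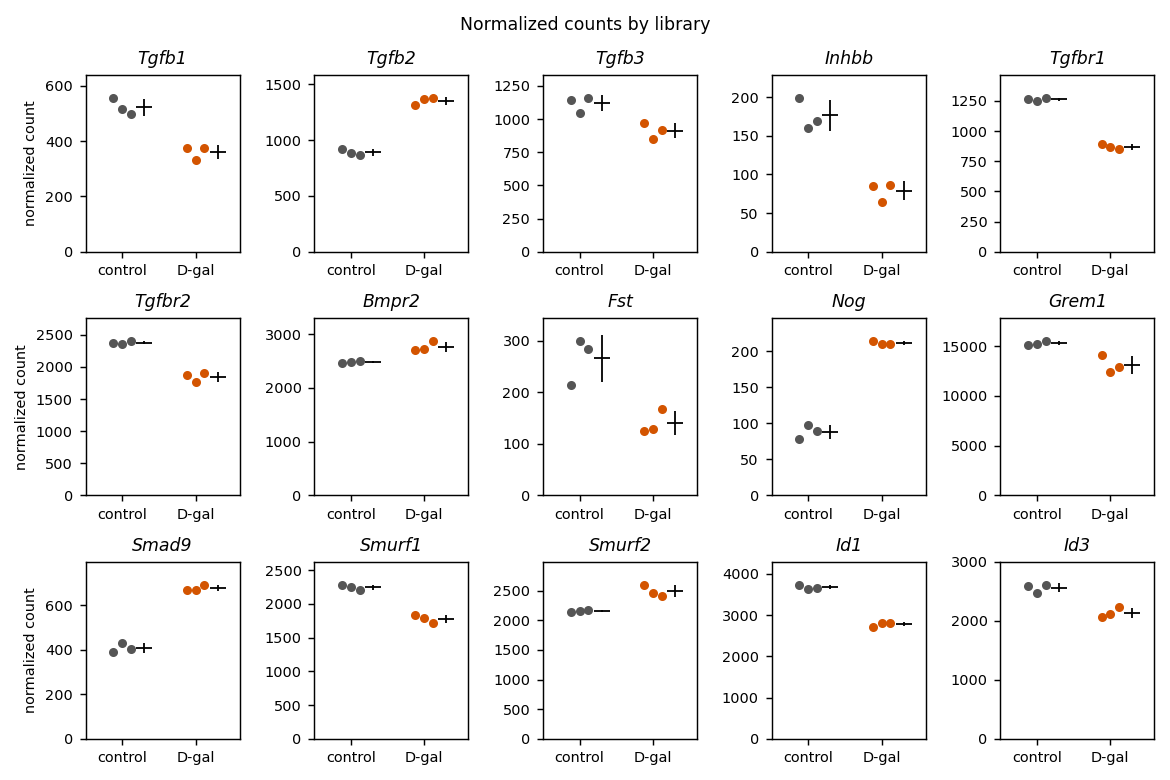
Normalized counts (y axis, from 0) of 15 of the changed genes in the 3 control (grey) and 3 D-gal (orange) libraries, each point a library and each cross the mean with its SD. In all 15 panels the D-gal points lie entirely above or entirely below the control points, above for Tgfb2, Bmpr2, Nog, Smad9 and Smurf2 and below for the rest.

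On a per-length scale the set was led by secreted antagonists and Id genes. Fstl1, Grem1 and Id1 led under PBS, with means of 3920, 3690 and 3170 normalized counts per kilobase of exon, followed by Id3 at 1430. On this scale Grem1 (3170) came before Fstl1 (2950) in the D-gal group and within each D-gal library, but after it within each control library. Its D-gal range (2990 to 3410) overlapped that of Fstl1 (2830 to 3030). The order depends on the exon length used. By the authors' FPKM values Grem1 was above Fstl1 in every library. Under PBS these were 215.5, 216 and 219.5 for Grem1 and 185.3, 185.2 and 183.8 for Fstl1. Under D-gal they were 204.4, 180.5 and 187.2 for Grem1 and 145.8, 137 and 144.7 for Fstl1. Per kilobase of exon, the binding proteins Ltbp2, Ltbp3 and Ltbp1 had control means of 888, 722 and 656. The ligands they resemble in direction were lower, at 330 for Tgfb3, 154 for Tgfb2 and 104 for Tgfb1. The order of the binding proteins also depends on the length used. By FPKM Ltbp3 was the highest of them under PBS, at 75.52, 75.96 and 71.11. Ltbp2 was at 31.46, 31.4 and 31.33 and Ltbp1 at 27.73, 27.84 and 27.5. By FPKM Ltbp3 was also above Id3, at 66.57, 63.31 and 66.78 under PBS. Per kilobase of exon, Tgfb2 (234) came closer to Tgfb3 (270) in the D-gal group. All 3 libraries of Tgfb2 lay between 227 and 239 and those of Tgfb3 between 252 and 286. By FPKM the 2 genes stayed further apart in D-gal, at 8.671, 9.083 and 9.174 against 17.15, 15.23 and 16.41. Smad3 was the more abundant TGF-β-branch Smad, at 294 against 76.4 for Smad2 under PBS. Nog moved from 52.2 to 125 per kilobase and Fst from 57.8 to 30.5. By FPKM Nog was well below Fst under PBS, at 2.728, 3.399 and 3.076 against 5.408, 7.518 and 7.099. Under D-gal it was above Fst, at 7.589, 7.512 and 7.461 against 3.199, 3.331 and 4.292.

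**Figure D4:**
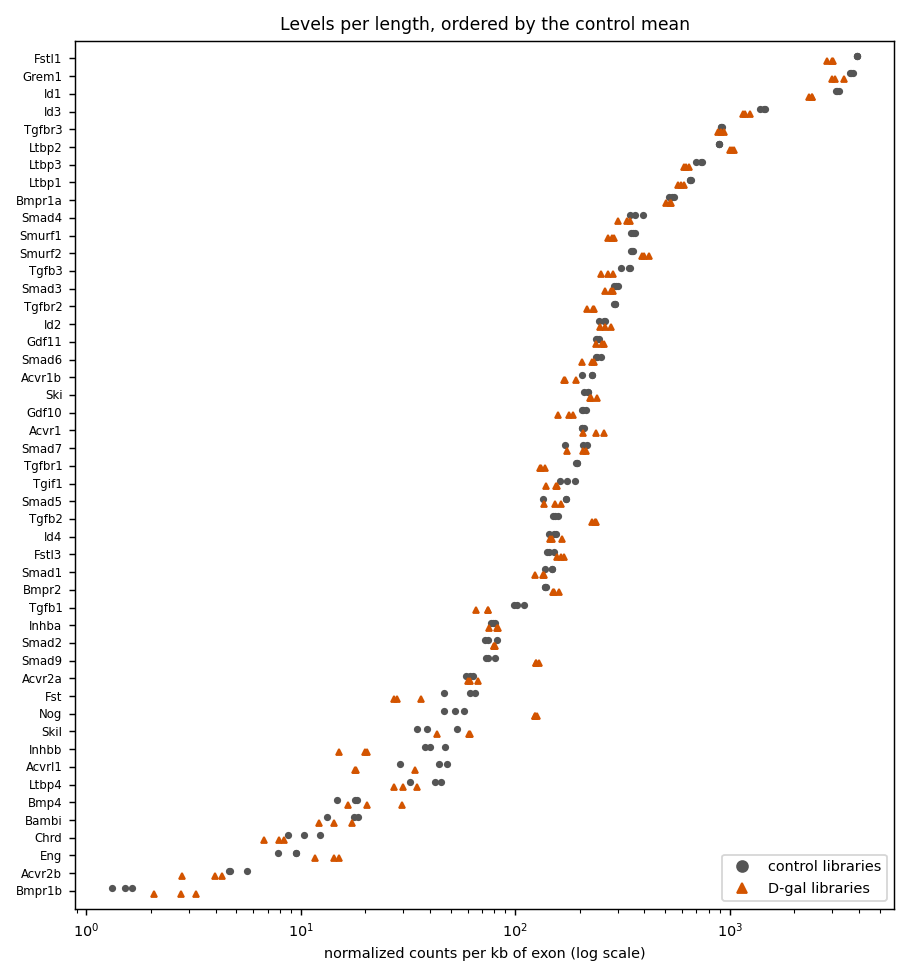
Normalized counts per kilobase of exon (x axis, log scale) of the 48 genes tested in each control (grey circles) and D-gal (orange triangles) library, ordered by the control mean. Fstl1, Grem1 and Id1 lie to the right of all other genes, and the clearest separations of triangles from circles are those of Nog, Smad9, Tgfb2, Inhbb and Fst.

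Further genes of the pathway were examined in lists written from general knowledge. Of 7 genes tested from the list of other ligands, none was higher and 2 were lower (28.6% changed, beside 34.8% of all genes), Bmp1, a protease that processes procollagen and chordin (4551 ± 122 to 4120 ± 17.6 normalized counts, log2 fold change -0.14, adjusted p = 0.0104), and Gdf15, a stress-induced ligand (283.2 ± 47.1 to 206.9 ± 7.37, -0.45, adjusted p = 0.026). Their median log2 fold change was 0.15. Gdf15 lost its call without control library 1 or without any 1 of the D-gal libraries, with adjusted p between 0.0536 and 0.0725, and Bmp1 alone was then left. Of 7 other receptors and co-receptors, 1 was higher (14.3%, beside 16.9% of all genes) and 3 were lower (42.9%, beside 17.8%), with a median of 0.04. Cd109, a co-receptor that dampens TGF-β signalling, went from 2915 ± 87.3 to 1490 ± 112 (log2 fold change -0.97, adjusted p = 1.73e-05). Vasn, a membrane protein that traps TGF-β, had a log2 fold change of -0.44 (adjusted p = 4.49e-05) and overlaps Dnaja3 on the same strand. Lrp1, an endocytic receptor, had -0.29 (adjusted p = 7.2e-05). The gene of this list that rose was Scube3, named after its values were seen, with 57.51, 77.52 and 56.56 under PBS and 182.9, 178 and 122.9 under D-gal (log2 fold change 1.33, adjusted p = 0.00153).

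Of 12 other secreted antagonists tested, 1 was higher (8.33%, beside 16.9% of all genes) and 8 were lower (66.7%, beside 17.8%), with a median log2 fold change of -0.52. Crim1, a membrane-anchored BMP binder, rose from 4888 ± 83.8 to 6669 ± 52.8 normalized counts (log2 fold change 0.45, adjusted p = 2.73e-05). Fmod (fibromodulin), a proteoglycan that binds TGF-β, fell from 286.1 ± 22.6 to 109.7 ± 4.38 (-1.38, adjusted p = 5.1e-05), and Twsg1, a chordin partner, had -0.45 (adjusted p = 1.36e-04). The list includes Dcn, also a fibroblast marker and named after its values were seen, at -1.42 (adjusted p = 4.28e-04), and the summed fibroblast markers were lower in D-gal, whose part in this result was not tested. The list of activators of latent TGF-β also holds genes that anchor the latent complex or process the precursor, such as Fbn2 and Furin. Of its 16 genes tested, 2 were higher (12.5%, beside 16.9% of all genes) and 8 were lower (50%, beside 17.8%), with a median of -0.13. Adamts1, a secreted protease, went from 2966 ± 34.8 to 4278 ± 66.0 (0.53, adjusted p = 1.65e-05). Mmp2, a gelatinase, had -0.51 (adjusted p = 2.69e-05), and Fbn2, a microfibril protein that anchors the latent complex, had -0.90 (adjusted p = 8.22e-05). The other gene that rose, named after its values were seen, was Furin, the protease that cleaves the TGF-β precursor, at 0.42 (adjusted p = 0.0162). It lost its call without control library 3, D-gal library 2 or D-gal library 3 (adjusted p between 0.0503 and 0.0545).

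Of 33 intracellular modulators of Smad signalling, 5 were higher, 8 were lower and 20 did not pass the threshold, with a median log2 fold change of -0.0042. The shares, 15.2% higher and 24.2% lower, were near the 16.9% and 17.8% of all genes. Hipk2, a nuclear kinase, rose from 904 ± 48.5 to 1325 ± 28.1 normalized counts (0.55, adjusted p = 1.68e-04). Pmepa1, a TGF-β-induced inhibitor of receptor-regulated Smads, had 0.38 (adjusted p = 7.53e-04). Wwp2, a ubiquitin ligase, had -0.39 (adjusted p = 4.07e-04), and Mir140 overlaps it on the same strand. The number changed in this list was 8 without control library 2 and 8 without D-gal library 2.

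The genes known to be induced by TGF-β in fibroblasts divided almost evenly, with 11 of the 31 tested higher (35.5%, beside 16.9% of all genes), 12 lower (38.7%, beside 17.8%) and 8 not past the threshold, and a median log2 fold change of 0.02. Those with the lowest p were matrix genes that fell. Fn1 (fibronectin) went from 112100 ± 2410 to 46570 ± 2570 normalized counts (log2 fold change -1.27, adjusted p = 1.78e-06), Col3a1 had -1.18 (adjusted p = 3.88e-06) and Col1a2 had -0.97 (adjusted p = 4.78e-06). Apol7d on the other strand overlaps Fn1, and Gm47302 on the same strand overlaps Col3a1. Among those that rose were the following 2, named after their values were seen. Acta2 (smooth muscle actin) had 36100, 37870 and 37760 under PBS and 53960, 48390 and 51640 under D-gal (0.46, adjusted p = 1.18e-04), and Cdkn2b, a cell cycle inhibitor, had 1.52 (adjusted p = 1.06e-05). The smooth muscle and pericyte markers, which include Acta2 and Cnn1, summed to between 36870 and 38640 under PBS and between 49460 and 54980 under D-gal. Acta2 made up most of this sum, and Abcc9, Cspg4 and Kcnj8 were at or near 0. Of the 5 markers tested, 4 were higher (80%, beside 16.9% of all genes) and 1 was lower (20%, beside 17.8%). The lower one was Rgs5, with a log2 fold change of -1.06 (adjusted p = 1.4e-04). Col1a1, Col1a2 and Col3a1 are in both the list of TGF-β-induced genes and the fibroblast markers. The sum of the fibroblast markers was lower in D-gal, and the part of that in the result was not tested.

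Of 12 genes known to be induced by BMP, 2 were higher (16.7%, at the 16.9% of all genes), 4 were lower (33.3%, beside 17.8%) and 6 did not pass the threshold, with a median log2 fold change of 0.02. Junb, which TGF-β also induces, had -0.64 (adjusted p = 6.3e-05) and overlaps Prdx2 on the other strand, with 6.51% of its words shared. Rgs4, a regulator of G-protein signalling, went from 203.1 ± 22.1 to 89.48 ± 4.93 normalized counts (-1.18, adjusted p = 2.35e-04), and Tcf7l1, a Wnt-pathway factor, had -0.52 (adjusted p = 3.28e-04). The 2 that rose, named after their values were seen, were Atoh8 at 0.21 (adjusted p = 0.00704) and Gata3 at 1.11 (adjusted p = 0.00729), both transcription factors.

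**Figure D5:**
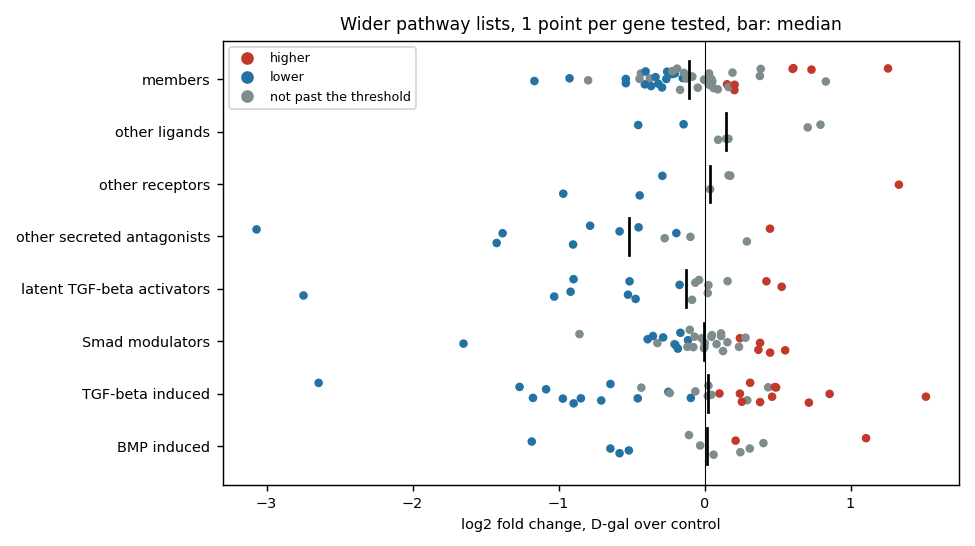
Log2 fold change (D-gal over control, x axis) of each gene tested in the 51-gene set (members) and in 7 wider lists, 1 point per gene, with black bars at the median of each list. Red and blue points passed an adjusted p under 0.05, and the median lies lowest for the other secreted antagonists (-0.52) and near 0 for the TGF-β-induced and BMP-induced genes.

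For a single member, an exact two-sided permutation test of 3 against 3 libraries cannot give a p below 0.1, and its value was 0.1 for every changed member. Of the 22 changed members, 20 were called in all 14 alternative fits, the exceptions being Eng and Gdf10, the latter with an adjusted p of 0.0565 without control library 3. The results are transcript levels, and neither ligand activity nor Smad phosphorylation was measured in these data.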

How the data were processed

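RNA of NOR-10 cells was sequenced in 3 control and 3 D-gal libraries. Per the labels, reads were aligned with HISAT2 (version 2.0.4), and the study's methods describe a quality check and trimming of low-quality bases. The genome build, the counting tool and its strand setting are not given in the sources used here. The labels name a general RNA-seq library kit and the methods a kit for small RNA, so the library type, which bears on strand and on what was counted, is uncertain. The deposited table holds raw read counts per gene and library, and FPKM values that the authors computed from them. The sample labels gave the groups and replicate numbers, and the study's methods the dose and duration. Library totals lay between 13759108 and 20830349 counts.

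The quasi-likelihood test of edgeR (version 4.0.16, in R 4.3.3) was run on the counts, 3 against 3 with no covariate, after filterByExpr and TMM scaling, and p-values were adjusted by the Benjamini-Hochberg method over all 13407 genes tested. Normalized counts bring each library to the mean TMM-scaled library size. The standard error (SE) of a log2 fold change was derived from its F statistic. Levels per kilobase used the exon length in GENCODE M21 (GRCm38), where 51 of the 52 rows were found and 39 had the same start and end. Overlaps and shared words of 31 bases were read from the same annotation, a gene being named as sharing above 5%. Every pair of replicates differed beyond counting noise (chi-square of their counts between 6 and 9.42 for each degree of freedom), so each library counted once.

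The members and all lists were chosen with earlier results of these data known. All members are accounted for. Changed members with a mean of at least 20 normalized counts are given in every library, and of each wider list up to 3 genes are named, those with the smallest p among the genes past the threshold, and any others are marked as chosen after their values were seen. Sequences were limited to changed members whose higher group had at least 100 counts in each library. The functions were tested on simulated counts. Alternatives were DESeq2 (version 1.42.0), RLE size factors, no filter on low counts, a minimum of 10 counts in each library, a replicate block, each library left out, limma (version 3.58.1) on log2(FPKM + 1), counts thinned to the smallest total and an adjusted p under 0.01. Rows with the same symbol were summed as an alternative added after seeing the data.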

Additional observations from a re-analysis of the deposited data

How the results depend on the processing

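The number of changed members was between 21 and 23 in all 14 alternative fits and 18 at an adjusted p under 0.01, where the number over all genes was 2729. With limma on log2(FPKM + 1), 120 of all genes and 1 member were differentially expressed, against 564 and 2, and the cause was not tested. Leaving out 1 library gave between 2 and 3 differentially expressed members, between 1 and 2 changed genes among the other ligands and between 8 and 11 among the Smad modulators. The replicate numbers did not pair the libraries (correlations of the deviations from the group means of -0.0133, -0.004 and 0.0277 for the same numbers), and with the replicate block 22 members changed, Acvrl1 in place of Eng, and 3982 of all genes. Log2 fold changes near 0 turned sign, none past the threshold. With 1 library left out, Acvr2a ranged from -0.014 to 0.063, Tgfbr3 from -0.026 to 0.018, Smad7 from -0.091 to 0.087, Id2 from -4e-04 to 0.089 and Id4 from -0.034 to 0.069, Tgfbr3 was at 0.030 with limma and Smad7 at -0.0055 with no filter. Calls were gained by Tgif1 with no filter (adjusted p = 0.0414) and by Fstl3 with limma (0.0422). Of 29 changed genes of the wider lists given with a value, 26 kept their call in every fit that tested them, the others being Gdf15, Furin and Ctdsp2.

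The chief limits are the 3 libraries per group, the single line and the single dose and time, with D-gal libraries shallower than control libraries throughout. Thinning all libraries to the smallest total left the 22 calls as they were. The counting strand is not given, and 13 of the members tested overlap a gene on the other strand and 3 on the same strand. Bmp2, Bmp6 and Bmp7 had too few counts to be tested in the main fit. Levels of RNA do not give levels of active ligand.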

Other observations

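Several genes of the wider lists differed between libraries of the same group, and were picked after their values were seen. Ctdsp2, a small C-terminal domain phosphatase that acts on Smads, had 5183, 5513 and 5430 normalized counts under PBS and 898.9, 896.5 and 3353 under D-gal, in the order of the replicate numbers. D-gal library 3 lay between the other D-gal libraries and the control group. The log2 fold change was -1.65 (edgeR adjusted p = 0.0277). It lost its call when any 1 library other than D-gal library 3 was left out (adjusted p between 0.059 and 0.0714). In the annotation 14.6% of the words of Ctdsp2 occur in other genes, and Mir26a-2 and Mir546 overlap it on the same strand.

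Itgav, the αV integrin subunit that helps to release latent TGF-β, had 2169, 2186 and 4319 normalized counts under PBS and 2154, 4087 and 2191 under D-gal. Control library 3 and D-gal library 2 were thus close to each other and apart from the remaining 4, whose values lay between 2154 and 2191. Gm13684 overlaps Itgav on the other strand, and 5.63% of its words occur in other genes. Fkbp1a, which binds the type I receptors, had 4647, 4575 and 4782 under PBS and 2578, 4358 and 4259 under D-gal, with D-gal library 1 apart. Tab2, an adaptor of the TAK1 kinase, had 2775, 4042 and 4067 under PBS and 4287, 4216 and 4312 under D-gal, with control library 1 apart. The library that stood apart was a different one for each of these genes.

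Itgb8, the β8 integrin subunit that activates latent TGF-β and also picked after its values were seen, had 30, 23 and 42 counts under PBS and 3, 5 and 3 under D-gal. It was lower in all 3 D-gal libraries (adjusted p = 0.00283 by edgeR's quasi-likelihood test), at counts too low for a precise fold.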
